A study of Mus musculus with 6 samples.

Results

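The genes of the enamel matrix proteins and of the enamel proteases were examined in the inner enamel epithelium (IEE) of the mandibular first molar at E18.5. The 7 members were the rows of the expression table named *Amelx*, *Ambn*, *Enam*, *Amtn*, *Odam*, *Mmp20* and *Klk4*, and all 7 were found among 18152 genes. The control group held 3 libraries of *Kdf1 fl/fl* mice, labelled WT, whose *Kdf1* gene is flanked by loxP sites. The cKO group held 3 libraries with the genotype *K14-Cre;Kdf1 fl/fl*, where Cre recombinase under the keratin 14 promoter deletes *Kdf1* in K14-expressing epithelium. The mouse lines had a C57BL/6J background, and the IEE was cut from frozen head sections by laser capture microdissection. Whether a library held the tissue of 1 embryo or of several is not given in the sources used here. *Kdf1* had a mean of 49.8 ± 4.82 CPM (counts scaled to library size; SD, n = 3) in control mice and 1 read in all in the cKO libraries, and was at least 259-fold lower there with each cKO library set to its limit of 3 counts.

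Enamel is laid down by ameloblasts, the columnar cells into which the IEE differentiates. In the secretory stage they release amelogenin (*Amelx*), ameloblastin (*Ambn*) and enamelin (*Enam*), and the metalloproteinase enamelysin (*Mmp20*) cuts these proteins while the crystals lengthen. In the later maturation stage the serine protease *Klk4* degrades the remaining matrix, and amelotin (*Amtn*) and odontogenic ameloblast-associated protein (*Odam*) mark the basal lamina between the ameloblast and the enamel. All 5 matrix genes belong to the secretory calcium-binding phosphoprotein (SCPP) family, and *Amelx* lies on the X chromosome. In the RefSeq annotation *Amtn*, *Ambn* and *Enam* follow each other on chromosome 5 with no other protein-coding gene between them. *Odam* lies on the same chromosome, *Klk4* lies between *Klk5* and *Klk15* on chromosome 7, and *Mmp20* lies between *Mmp27* and *Mmp7* on chromosome 9.

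The sequences next to the annotated starts are shown as a description. A short element lay at a similar place in the matrix genes and was absent from the protease genes. Any part of it in the members' levels was not tested. All 7 members matched a promoter in RefSeq (GRCm38.p6). The stretch from 120 bases before the start to 10 bases after it is printed 5′ to 3′ on the strand of the gene. Capitals mark CCAAT, the CCAAT box, in either orientation (ATTGG on the printed strand), and TATAA, the core of the TATA box, in either orientation. In *Amelx* a TATAA and a CCAAT match follow each other directly without a shared base.
Amelx (chrX:169187200-169187329, minus strand): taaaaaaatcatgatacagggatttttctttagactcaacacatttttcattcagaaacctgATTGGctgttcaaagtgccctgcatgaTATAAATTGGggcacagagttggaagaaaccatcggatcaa
Ambn (chr5:88455871-88456000, plus strand): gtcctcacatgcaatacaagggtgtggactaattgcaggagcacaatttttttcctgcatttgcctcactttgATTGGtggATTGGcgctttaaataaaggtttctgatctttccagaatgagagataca
Enam (chr5:88487855-88487984, plus strand): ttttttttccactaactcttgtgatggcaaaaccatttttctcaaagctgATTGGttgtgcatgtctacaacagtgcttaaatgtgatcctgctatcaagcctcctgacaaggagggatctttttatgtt
Amtn (chr5:88375988-88376117, plus strand): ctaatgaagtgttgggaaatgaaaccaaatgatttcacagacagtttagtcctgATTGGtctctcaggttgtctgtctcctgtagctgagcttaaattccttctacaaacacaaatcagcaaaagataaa
Odam (chr5:87884890-87885019, plus strand): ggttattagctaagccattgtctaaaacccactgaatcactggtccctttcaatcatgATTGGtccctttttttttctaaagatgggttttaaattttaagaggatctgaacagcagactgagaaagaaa
Mmp20 (chr9:7628111-7628240, plus strand): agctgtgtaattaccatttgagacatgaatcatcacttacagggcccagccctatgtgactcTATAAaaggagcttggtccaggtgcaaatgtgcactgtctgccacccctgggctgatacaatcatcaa
Klk4 (chr7:43881040-43881169, plus strand): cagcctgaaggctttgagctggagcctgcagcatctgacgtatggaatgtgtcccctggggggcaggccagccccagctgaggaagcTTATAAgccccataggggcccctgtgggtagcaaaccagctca
Each of the 5 matrix genes held CCAAT in this stretch, on the opposite strand, and neither protease gene did. Of 32851 promoters in the table, 22.3% held it in the same stretch. The longer string CCAATCA, which overlaps that match, began 60 bases before the start in *Amelx*, 49 in *Ambn*, 72 in *Enam*, 68 in *Amtn* and 64 in *Odam*, and 5.34% of all promoters held it in the same stretch. TATAA lay in the stretch of *Amelx*, *Mmp20* and *Klk4*, against 12.5% of all promoters. The RUNX core TGTGGT was in none of the 7 stretches (7.26% of all promoters), and the homeobox-type string TAATTG was in that of *Ambn* (3.29% of all promoters). These are matches of letters, chosen after the sequences had been seen, and binding was not measured.

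In control mice amelogenin was the leading transcript of the set. TPM values, which are scaled by transcript length and by the library's total and can be compared between genes, were 4017, 15804.5 and 32209 for *Amelx* in replicates 1, 2 and 3. By TPM *Amelx* ranked 21 of all genes in replicate 1 and 1 in replicates 2 and 3. In cKO mice its TPM values were 9.45, 173 and 699, and its ranks were 9767, 844 and 178. The highest cKO library thus lay below the lowest control library, and no library fell into the range of the other group. In CPM, which are counts divided by the scaled library size, the means were 5508 ± 4794 in control and 92.6 ± 116 in cKO mice (SD, n = 3 per group), a ratio of 59.5. In bulk tissue, fewer cells of a type and less RNA per cell cannot be told apart.

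**Figure D1:**
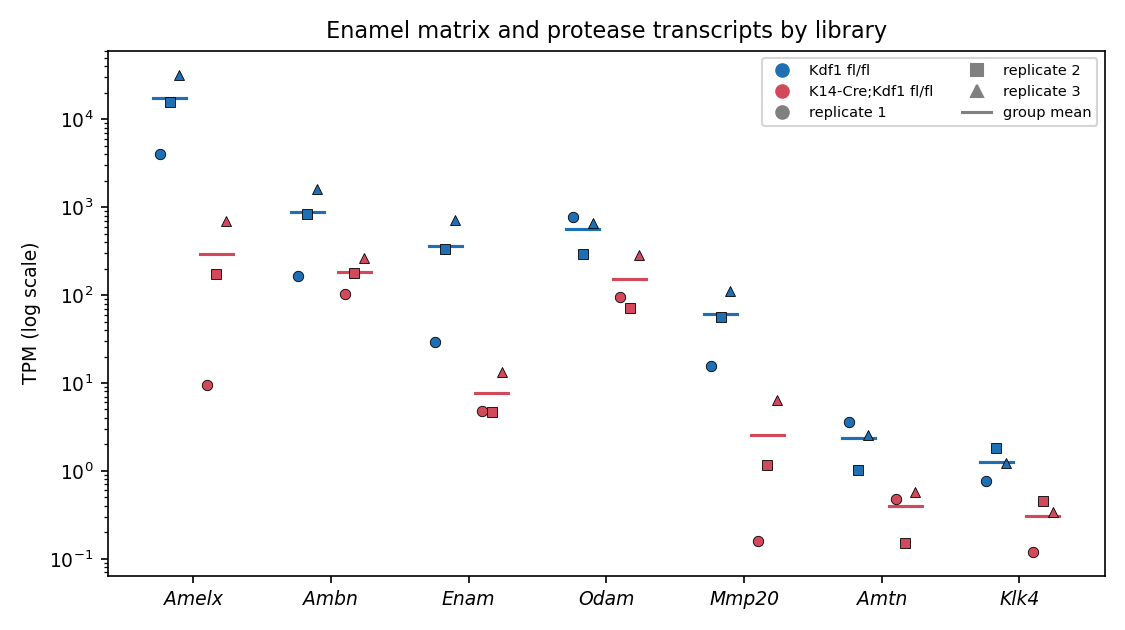
TPM of the 7 genes (log axis) in each library, with control in blue and cKO in red, symbols for the replicate number and bars for group means (n = 3). The groups are apart for *Amelx*, *Enam*, *Mmp20*, *Amtn* and *Klk4* and come close to each other or overlap for *Ambn* and *Odam*.

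Ameloblastin, a cell-adhesive matrix protein, had 165, 828 and 1621 TPM in control and 103, 180 and 261 TPM in cKO mice. Replicate 1 of the control group lay inside the range of the cKO group, and the other 2 control libraries lay above it. Enamelin, the largest enamel matrix protein, had 29.2, 336 and 711 TPM in control and 4.81, 4.73 and 13.4 TPM in cKO mice. For *Enam* the groups did not overlap, and its control libraries differed from each other by up to 26.3-fold in CPM. *Odam* had 765, 295 and 655 TPM in control and 94.7, 71.3 and 289 TPM in cKO mice. In *Odam* the lowest control library, replicate 2, and the highest cKO library, replicate 3, were at the same level, 283 and 287 CPM. The other 2 libraries of each group were clearly apart, and *Odam* was the only tested member whose control replicate 1 was its highest.

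Enamelysin, the protease of the secretory stage, had 15.4, 56.4 and 110 TPM in control and 0.160, 1.18 and 6.37 TPM in cKO mice. It rested on 4, 32 and 173 counts in the 3 cKO libraries, and every cKO library was below every control library. *Amtn* and *Klk4* had few counts in both groups. *Amtn* had 25, 7 and 19 counts in control and 3, 1 and 4 in cKO mice, and *Klk4* had 7, 16 and 12 counts against 1, 4 and 3. Over the summed libraries the rate was 6.19-fold higher in control mice for *Amtn* (95% exact Poisson interval 2.92 to 15.1) and 4.25-fold higher for *Klk4* (1.94 to 10.6), where the intervals cover counting error only. Whether reads of *Klk4* were shared with other kallikrein genes was not tested, and its value is uncertain at these low counts.

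By TPM *Amelx* led in all 3 control libraries, and *Mmp20* came just above *Amtn* and *Klk4*, which were last in an order that changed in replicate 2. *Ambn*, *Enam* and *Odam* changed places, with *Odam* above *Ambn* and *Enam* in replicate 1 and below both in replicates 2 and 3. Their means of 871 ± 729, 359 ± 342 and 572 ± 246 TPM (SD, n = 3) did not differ beyond their spread, and neither did those of *Amtn* and *Klk4* (2.39 ± 1.28 and 1.27 ± 0.516 TPM). In cKO mice *Ambn* led in replicates 1 and 2 and *Amelx* in replicate 3, and their means of 181 ± 79.0 and 294 ± 360 TPM overlapped. *Odam* had 152 ± 120 TPM there, *Enam* 7.66 ± 5.0 and *Mmp20* 2.57 ± 3.33.

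The 7 genes together made up 0.500%, 1.73% and 3.53% of all TPM in the control libraries and 0.0213%, 0.0431% and 0.127% in the cKO libraries. *Amelx* held 80.4%, 91.2% and 91.2% of this sum in control mice, against 4.44%, 40.1% and 55.0% in cKO mice. *Ambn* held 3.31% to 4.78% in control and 20.6% to 48.4% in cKO mice, and the groups did not overlap for either gene. Shares of the same sum depend on each other, so a lower share of *Amelx* raises that of *Ambn*. The TPM of *Ambn* itself was lower on average in cKO mice. The log2 ratio of *Amelx* to *Ambn* in CPM was 2.78 ± 0.19 in control and −2.31 ± 2.51 in cKO mice (SD, n = 3 per group; two-sided exact permutation test, p = 0.10, the smallest that 3 libraries against 3 allow). *Mmp20* to *Ambn* differed by −3.58 and *Enam* to *Ambn* by −2.99 on the log2 scale, each with the same p of 0.10 in the exact permutation test. The ratio of *Amelx* to *Mmp20* was nearly constant in control mice, 5.61 ± 0.08, and was lower in cKO mice, 4.11 ± 0.68 (exact permutation p = 0.10). *Odam* to *Ambn* (−0.27, exact permutation p = 0.90), *Enam* to *Mmp20* (0.60, p = 0.80 in the same exact test) and *Amelx* to *Enam* (−2.10, p = 0.30 in the same exact test) did not separate the groups. These 7 ratios were chosen after the values had been seen. With 3 libraries against 3, none could pass a threshold of 0.05, with or without adjustment.

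**Figure D2:**
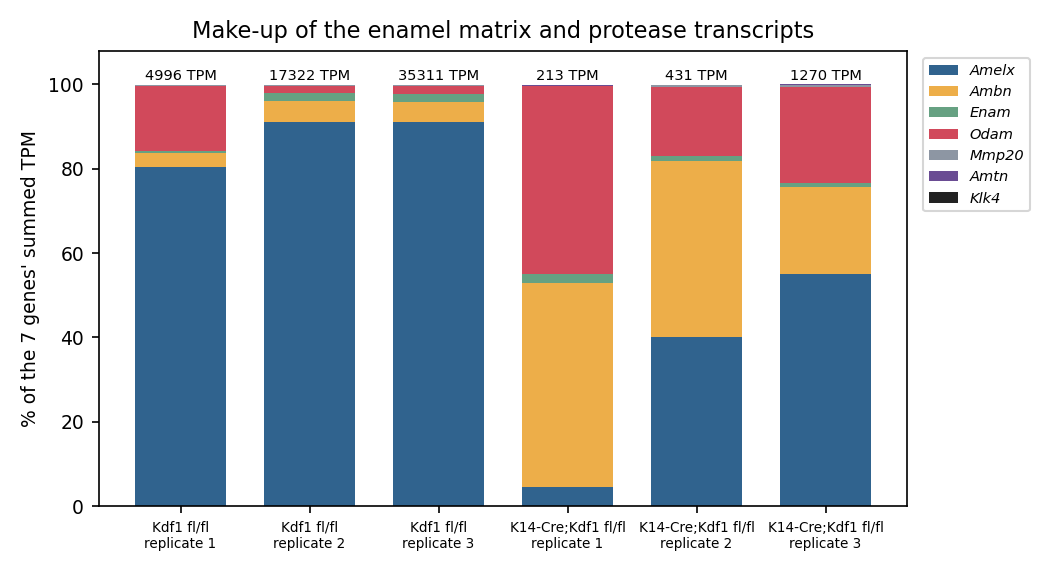
Share of each gene in the summed TPM of the 7 genes (vertical axis, percent) in each library, with the sum above each bar. *Amelx* takes 80.4% to 91.2% of the sum in control and 4.44% to 55.0% in cKO mice.

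The groups were compared by edgeR's quasi-likelihood test across 14131 genes with enough counts. A gene was called when its log2 fold change was 1 or more in size with a Benjamini-Hochberg adjusted p of at most 0.05. Of the 7 members 5 entered this test, and *Amtn* and *Klk4* did not because of their low counts. *Mmp20* entered through the control group, where alone it had at least 10 counts in every library. Without a replicate term no member was called by edgeR, where 0.29% of all genes were called lower and 0.142% higher in cKO mice. All 5 had an unadjusted p under 0.05 and a log2 fold change beyond −1, against 2.52% of all genes with such a p and direction. When edgeR took the replicate number as a blocking factor, all 5 were called lower, against 1.92% of all genes called lower and 4.16% called higher. Neither the labels nor the study's methods pair the RNA-seq libraries. The block was read from these data, so every call with it depends on that reading. DESeq2 called *Amelx*, *Enam* and *Mmp20* lower, against 1.88% of all genes called lower and 5.05% called higher. Every cKO library lay below every control library in 3 of the 5, against 16.2% of all genes tested. The median log2 fold change of the 5 was −4.59, and that of all genes tested was −0.0043.

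*Amelx* had a log2 fold change of −5.89 (SE 1.57) with an adjusted p of 0.0920 in edgeR, and it fell by 6.79 (SE 0.72) with the block (edgeR adjusted p = 0.00957). *Enam* had −5.62 (SE 1.19, edgeR adjusted p = 0.0692), and −4.99 (SE 0.77, edgeR adjusted p = 0.0210) with the block. *Mmp20* had −4.59 (SE 1.19, edgeR adjusted p = 0.0884), and −5.0 (SE 0.40, edgeR adjusted p = 0.00578) with the block. Among all 14131 genes ordered from the most lowered, these 3 ranked 2, 3 and 4, and the first was *Kdf1* itself. *Ambn* had −2.33 (SE 0.79, edgeR adjusted p = 0.141) and −1.91 (SE 0.37, edgeR adjusted p = 0.0346) with the block, at rank 37. *Odam* had −2.0 (SE 0.62, edgeR adjusted p = 0.122) and −2.16 (SE 0.36, edgeR adjusted p = 0.0246) with the block, at rank 62. DESeq2 gave adjusted p values of 0.000176, 0.000103 and 0.0141 for *Amelx*, *Enam* and *Mmp20*, and of 0.0800 and 0.0685 for *Ambn* and *Odam*. In fits without a filter on low counts, *Amtn* had a log2 fold change of −2.58 (SE 0.71, edgeR adjusted p = 0.106) and *Klk4* −2.05 (SE 0.65, edgeR adjusted p = 0.139), and with the block the adjusted p values of edgeR were 0.0439 and 0.0923.

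**Figure D3:**
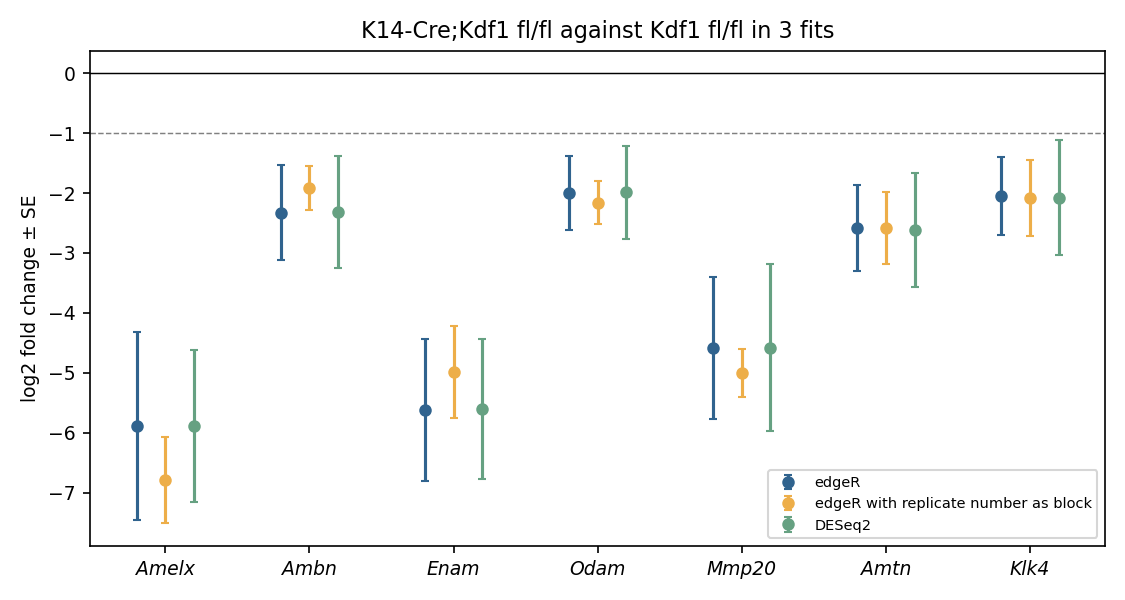
Log2 fold change (cKO against control) of the 7 genes with its SE from 3 fits (edgeR in blue, edgeR with replicate number as block in orange, DESeq2 in green), with the fold threshold as a dashed line; *Amtn* and *Klk4* are from fits without the filter on low counts. All estimates lie below −1, and the interval of 1 SE is narrowest with the block for all 7 genes.

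Libraries with the same replicate number were also compared directly. *Amelx* was 480-fold, 88.5-fold and 47.9-fold lower in CPM in the cKO library of replicates 1, 2 and 3, and *Mmp20* 106-fold, 46.3-fold and 18.2-fold. *Enam* was 6.75-fold, 68.7-fold and 55.7-fold lower and *Ambn* 1.79-fold, 4.45-fold and 6.51-fold. For *Odam* the values were 8.98-fold, 4.02-fold and 2.50-fold. All 5 members were therefore lower in all 3 pairs. For *Amelx*, *Enam* and *Mmp20* any matching of the libraries would give this, because their groups did not overlap. The difference was largest in replicate 1 for *Amelx*, *Mmp20* and *Odam* and smallest there for *Enam* and *Ambn*.

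The members varied to different degrees inside each group. In control mice the SD of log2 CPM was 2.44 for *Enam*, 1.73 for *Ambn*, 1.56 for *Amelx* and 1.48 for *Mmp20*, which ranked 11, 52, 71 and 82 from the most variable of 14131 genes. *Odam* varied less, with an SD of 0.812 at rank 632. In cKO mice *Amelx* (SD 3.24, rank 3) and *Mmp20* (SD 2.46, rank 10) were among the most variable, while *Ambn* (0.773) and *Enam* (0.932) ranked 1348 and 821. *Odam* had an SD of 1.09 there, at rank 478. control replicate 1 had the lowest *Amelx*, *Ambn*, *Enam* and *Mmp20* of its group. It also had the lowest levels of *Dspp* (200 TPM, against 842 and 1336), *Col1a1* (628, against 4161 and 2363) and *Bglap* (78.9, against 674 and 712), genes of odontoblasts and bone. Over the whole lists, 6 of 14 dental papilla and odontoblast genes and 5 of 7 bone genes had their lowest control TPM in replicate 1, and 8 and 1 had it in replicate 3. *Ibsp* was highest in replicate 1, and the part of these levels in the members' spread was not tested. Without control replicate 3 the log2 fold change without a block was smallest in size for *Amelx* (−5.01), *Enam* (−4.55), *Mmp20* (−3.76) and *Ambn* (−1.43). Without cKO replicate 3 it was −7.66 for *Amelx*, −6.36 for *Enam*, −6.57 for *Mmp20* and −2.89 for *Odam*, and *Odam* was then called by edgeR (adjusted p = 0.0476).

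The labelled tissue was checked against marker lists. The 10 dental epithelium genes summed to 9610 to 13700 TPM in control and 5810 to 9730 TPM in cKO mice. *Krt5*, the keratin of basal epithelial cells, was highest in every library, and no gene of the list was at 0. With the block *Krt14* and *Cdh1* of these 10 were called lower, against 1.92% of all genes tested. Genes of dental papilla and odontoblasts were present in all libraries, at 1830 to 8570 TPM in control and 4550 to 6310 TPM in cKO mice. None of these 14 genes was at 0 in any library. With the block 7 of them were called higher, against 4.16% of all genes tested, and 1, *Dspp*, lower, against 1.92%. The median of the list was 1.49 on the log2 scale without the block. The part of neighbouring tissue in the members' values was not tested. Relative to the summed dental epithelium list, *Amelx* differed by −6.24 on the log2 scale, *Mmp20* by −4.74, *Enam* by −4.14, *Amtn* by −1.91 and *Odam* by −1.42, and for each of these the groups did not overlap (two-sided exact permutation test, p = 0.10, the smallest possible). *Ambn* differed by −1.15 (exact permutation p = 0.40) and *Klk4* by −1.48 (exact permutation p = 0.20), with overlapping groups.

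The other marker lists are given by their sums and calls with the block, which called 1.92% of all genes tested lower and 4.16% higher. The 7 genes of stratum intermedium and stellate reticulum, which share *Alpl* and *Krt17* with other lists, summed to 2980 to 4080 TPM in control and 1850 to 2370 TPM in cKO mice, and 1 was called lower. Bone genes summed to 302 to 1440 and 423 to 926 TPM, and none of 6 tested was called. Keratinised epithelium had 37.6 to 142 and 15.5 to 16.7 TPM with 1 of 4 called lower. Immune cell genes had 60.4 to 122 and 115 to 372 TPM with 2 of 9 called higher, and endothelial genes 177 to 244 and 228 to 692 TPM with none of 8 called. Erythroid genes had 3320 to 5040 and 3330 to 5610 TPM with none of 6 called. The 4 Y-linked genes measured summed to 0.210 to 129 TPM in control and 9.54 to 103 TPM in cKO mice, with all 4 highest in control replicate 2 or cKO replicate 3. In control replicate 1 *Ddx3y*, *Eif2s3y* and *Kdm5d* were at 0. *Eif2s3y* had 0, 83.4 and 14.7 TPM in control and 6.02, 6.99 and 58.85 TPM in cKO mice, and so differed between libraries of the same number. The part of these differences in the members' values was not tested.

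*Amelx* lies inside the span of *Arhgap6*, a gene on the opposite strand, in the GENCODE annotation of GRCm38, and none of the exons of *Arhgap6* overlaps it. *Arhgap6* was at 1.24, 1.72 and 1.78 TPM in control and at 6.68, 2.55 and 2.40 TPM in cKO mice. Every cKO library was above every control library, the reverse of *Amelx*, with a log2 fold change of 1.18 (SE 0.41, edgeR adjusted p = 0.145, and 0.147 with the block). Whether the counting used strand is not given in the sources used here.

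Other genes of enamel formation were compared as 4 lists. Without the block edgeR called none of their genes. With the block 1.92% of all genes tested were called lower and 4.16% higher. Of 14 transcription regulators of enamel formation, only *Runx2*, a regulator of mineralised tissue cells, was called with the block, and it was higher. In the same fit 7 of 14 dental papilla and odontoblast genes were called higher and 1 lower. The part of such tissue in the level of *Runx2* was not tested. *Runx2* had 15.4, 20.8 and 11.65 TPM in control and 85.6, 38.6 and 33.9 TPM in cKO mice. Its log2 fold change with the block was 1.56 (edgeR adjusted p = 0.0241, and 0.0674 without the block). The median log2 fold change of the 14 regulators was −0.34. In 7 of 14 every cKO library lay below every control library, against 16.2% of all genes tested. *Sp6*, *Satb1* and *Foxo1* had log2 fold changes of −0.76, −0.97 and −0.98 with the block, with edgeR adjusted p values of 0.0384, 0.0136 and 0.00952, short of the fold threshold. Without the block the adjusted p values of edgeR were 0.107, 0.0841 and 0.0498. *Sp6* (epiprofin), which ameloblasts need, had 953, 1032 and 1113 TPM in control and 581, 558 and 807 TPM in cKO mice. *Dlx3* (−0.52) and *Msx2* (0.16), homeobox genes of the ameloblast lineage, had edgeR adjusted p values with the block of 0.0835 and 0.686. Without the block these were 0.199 and 0.619 in edgeR.

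Of 16 other amelogenesis imperfecta genes tested, from 20 listed, 2 were called lower with the block and none higher, and the median log2 fold change was −0.66. *Acp4*, an acid phosphatase of secretory ameloblasts, had 15.8, 34.6 and 82.3 TPM in control and 1.46, 2.12 and 4.69 TPM in cKO mice. It fell by 3.92 on the log2 scale (edgeR adjusted p = 0.00256 with the block, 0.0637 without). *Lama3*, a chain of laminin-332, had 23.25, 18.9 and 29.3 TPM in control and 15.5, 7.46 and 14.8 TPM in cKO mice. Its log2 fold change with the block was −1.02 (edgeR adjusted p = 0.0132, and 0.123 without the block). Of 12 genes of matrix processing and uptake 1 was called lower and 1 higher with the block. *Fam20c*, the Golgi kinase that phosphorylates SCPP proteins, went from 37.0, 51.9 and 70.0 TPM to 21.7, 16.0 and 29.3 TPM. It fell by 1.30 on the log2 scale with the block (edgeR adjusted p = 0.00964, and 0.0842 without the block). *Mmp2*, a gelatinase of mesenchymal cells, went from 42.4, 131 and 35.7 TPM to 406, 271 and 143 TPM. It rose by 2.04 on the log2 scale with the block (edgeR adjusted p = 0.0328, and 0.0993 without the block). *Ctsc*, whose product can activate the *Klk4* protease, had 13.85, 15.4 and 7.34 TPM in control and 55.4, 15.6 and 9.59 TPM in cKO mice. Its log2 fold change with the block was 1.02 (edgeR adjusted p = 0.108, and 0.146 without the block).

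Of the SCPP relatives that are not enamel matrix genes, 7 of 12 were tested, 2 were called lower and none higher with the block. *Dspp*, the main odontoblast product that preameloblasts also make for a short time, had 200, 842 and 1336 TPM in control and 7.35, 32.3 and 181 TPM in cKO mice and fell by 4.18 (edgeR adjusted p = 0.00957 with the block, 0.152 without). *Csn3*, a casein gene, had 17.2, 5.49 and 11.65 TPM in control and 1.19, 0.370 and 4.88 TPM in cKO mice. It fell by 2.62 with the block (edgeR adjusted p = 0.0413, and 0.14 without the block). *Spp1* (osteopontin) differed in the other direction, with 42.4, 74.6 and 36.25 TPM in control and 1682, 176 and 527 TPM in cKO mice. Its log2 fold change with the block was 3.46 (edgeR adjusted p = 0.0507, and 0.0656 without the block). *Ibsp* (bone sialoprotein) had 121, 107.7 and 90.3 TPM against 367, 116 and 213 TPM. Its log2 fold change with the block was 0.93 (edgeR adjusted p = 0.0756, and 0.136 without the block). DESeq2 called *Spp1* and *Ibsp* higher, with adjusted p values of 0.000162 and 0.0262.

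**Figure D4:**
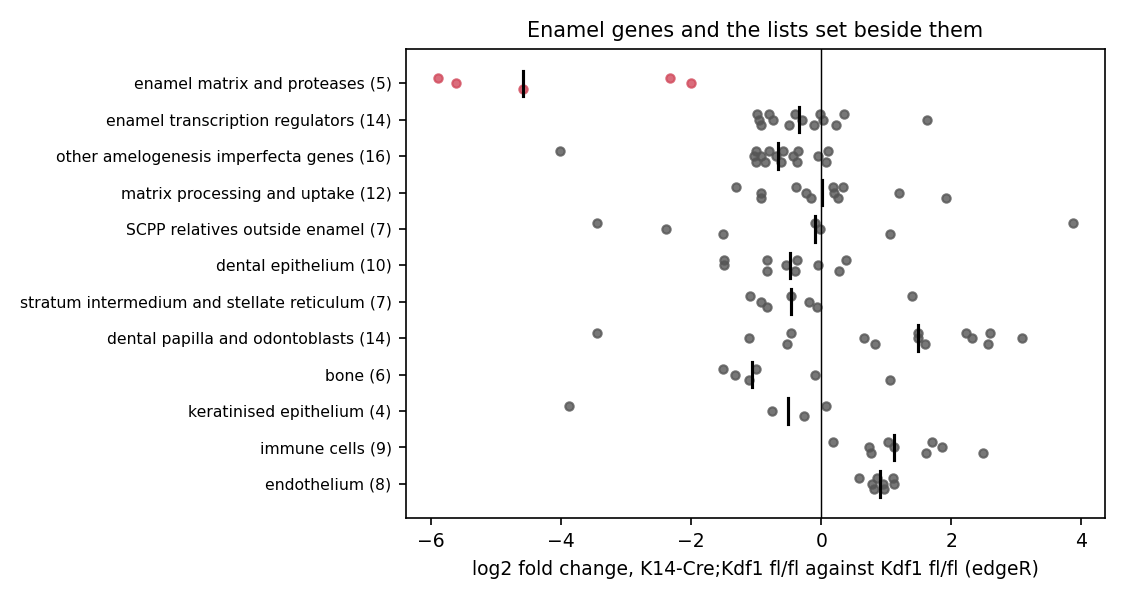
Log2 fold change in edgeR without the block (horizontal axis) of each tested gene of the enamel set (red) and of the lists set beside it (grey), with the number of genes in brackets and black bars for medians. The 5 enamel genes lie between −5.89 and −2.0, and the median of the dental papilla list lies above 0.

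The genes with the pattern most like that of a member were found by the root mean square difference of log2 CPM, each gene centred on its own mean over the 6 libraries, among 11598 genes with a mean of at least 5 CPM, leaving out the members themselves. For *Mmp20* they were *Dspp* (0.554), *Calb1* (1.11) and *Acp4* (1.21), and for *Amelx* the same 3 genes at 1.52, 2.06 and 2.15. *Calb1* encodes calbindin, a calcium-binding protein abundant in ameloblasts, and had 514, 741 and 2435 CPM in control and 27.3, 102 and 365 CPM in cKO mice. For *Enam* they were *Acp4* (0.953), *Dspp* (1.14) and *Ildr2* (1.27). The nearest to *Ambn* were *Clu* (0.337), which encodes clusterin, *Pla2g2f* (0.391) and *Stac3* (0.421). The nearest to *Odam* were *Ggt1* (0.411), *Sfn* (0.413) and *Th* (0.427). Between members, *Amelx* and *Mmp20* were closest, followed by *Enam* and *Mmp20* (1.15), and *Amelx* and *Odam* were farthest apart (3.05). These distances describe 6 libraries that also differ by genotype.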

How the data were processed

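Laser-captured IEE of the mandibular first molar was sequenced in 3 control and 3 cKO libraries. The submitters' processing notes name BWA 0.7.12, Picard 2.6.0 and StringTie, without their roles, and the genome build and counting program are not given in the sources used here. The authors deposited estimated counts per gene, of which 10.9% to 11.5% per library were not whole. The deposited TPM values are the authors' length-scaled levels, and the deposited FPKM values were not used. The authors' group means were not used.

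Counts were rounded, summing to 14713918 to 16675133 per library, and 3 counts equal 0.182 to 0.198 CPM. In R 4.3.3, genes were filtered with filterByExpr, scaled by TMM and compared with edgeR 4.0.16 (robust quasi-likelihood F-test, two-sided, Benjamini-Hochberg over 14131 genes). The SE is the log2 fold change divided by the square root of F. Within a group, chi-square per gene between libraries was 36.1 to 77.0, so no library was a second copy of another. The labels call them biological replicates without naming the animals, so p-values measure the spread between these libraries. Across genes, deviations from the group means had correlations of 0.135, 0.324 and 0.499 for replicates 1, 2 and 3 of both groups. The labels and the study's methods name no pairs of RNA-seq libraries, and the numbers were read as pairs from the data. Correlations between libraries of unlike numbers are not given here. Calls with the block depend on that reading. For the members and the genes named from the enamel lists, edgeR adjusted p values without the block are given as well. Calls in the marker lists are given with the block only. DESeq2 1.42.0, limma 3.58.1 on log2(TPM + 1) and log2(TPM + 0.1), other scalings and filters and omission of each library were alternatives.

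The members, the 4 enamel lists and the 9 marker lists were chosen with earlier results of these data known. The genes named were the members, *Kdf1*, *Arhgap6*, up to 5 called genes per enamel list and the 3 nearest genes outside the set per tested member. *Krt5*, *Krt14*, *Krt17*, *Alpl*, *Cdh1*, *Col1a1*, *Bglap*, *Sp6*, *Satb1*, *Foxo1*, *Dlx3*, *Msx2*, *Krt4*, *Krt13*, *Klk8* and *Klk10* were named after their values were seen.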

Additional observations from a re-analysis of the deposited data

How the results depend on the processing

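The 5 tested members kept their direction in every alternative fitted. The number of members called by edgeR was 0 in the fit without a block. It was 5 with the replicate block and 3 in DESeq2, and between 0 and 1 when a library was left out. It stayed at 0 with the other scalings, filters and limma on TPM. The replicate block also called *Amtn* in the fit without a filter. *Klk4* was called in no alternative. The log2 fold change ran from −7.66 to −5.01 for *Amelx*, from −6.36 to −4.55 for *Enam*, from −6.57 to −3.76 for *Mmp20*, from −2.81 to −1.43 for *Ambn* and from −2.89 to −1.63 for *Odam*, with the extremes in fits that left out a library. It ran from −2.99 to −1.21 for *Amtn* and from −2.43 to −0.78 for *Klk4*, with the smallest size in limma on log2(TPM + 1), a scale that understates low genes. *Mmp20* was not fitted with at least 10 counts in every library, since that filter removes it. Over all genes 61 were called (20 higher, 41 lower). The count was 980 in DESeq2, 860 with the replicate block, 103 without a filter, 6 with at least 10 counts in every library and 16 with limma on log2(TPM + 1). It was 7 with DESeq2's size factors (1 higher, 6 lower) and 9 with library size alone (2 higher, 7 lower). Leaving out 1 library gave 1 to 465 genes, the highest without replicate 3 of the cKO group, and the cause was not tested. Ratios to the dental epithelium list kept their sign in all alternatives. *Amtn* and *Klk4* rest on 4 counts or fewer in each cKO library, which limits their precision.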

Other observations

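*Klk4* is 1 of 11 kallikrein genes in the table, and 4 of the 11 had enough counts to be tested. *Klk10* was the most abundant of them in control mice, with 44.5, 58.7 and 94.4 TPM, and had 9.93, 11.99 and 30.9 TPM in cKO mice. It fell by 2.07 on the log2 scale in edgeR with the replicate block (adjusted p = 0.00451), and its adjusted p was 0.0981 in edgeR without it. *Klk8* was at 26.6, 26.0 and 30.3 TPM in control and at 29.4, 25.4 and 31.5 TPM in cKO mice, with a log2 fold change of −0.04 (SE 0.20, edgeR adjusted p = 0.919).

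*Krt13* and *Krt4*, keratins of the oral lining epithelium, had 46.0 and 22.2 TPM in replicate 3 of the control group, the library with the highest *Amelx*, *Ambn*, *Enam* and *Mmp20*. Each was at 0.590 TPM or less in the other 5 libraries.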
